A study of Arabidopsis thaliana with 12 samples.

Results

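The genes described here are 68 of the 37336 Arabidopsis genes in the expression tables, and they were chosen because the synthetic abscisic acid (ABA) agonist iSB09 raised them in wild-type (WT) seedlings and not in seedlings of the receptor line CsPYL1-5m. Expression was given in TPM, a unit that divides reads by transcript length and scales every sample to the same sum. The response of a gene is the mean of log2(TPM + 0.5) over the 3 iSB09 samples minus the mean over the 3 mock samples of the same genotype. A member had a WT response of at least 0.7, a lowest WT iSB09 value above the highest WT mock value, a CsPYL1-5m response of 0 or less and a mean of at least 2 TPM in WT iSB09 samples. Of 872 genes that met the criteria set on WT, 804 had a CsPYL1-5m response above 0 and the other 68 are the members. Both responses chose these genes, so the values in the 4 groups are a description and were not tested as differences.

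RNA-seq was done on Arabidopsis thaliana seedlings of the Col-0 background that were mock-treated with DMSO or treated with 5 μM iSB09 for 3 hours. WT Col-0 plants received mock or iSB09 treatment, as did plants that carry a sweet orange ABA receptor, CsPYL1, with engineered mutations that raise its sensitivity to the agonist. This receptor, CsPYL1-5m, was HA-tagged, driven by the 35S promoter in most tissues and carried by homozygous T3 plants, and how many lines went into the RNA samples was not stated. There were 3 samples for each of the 4 groups, from experiments that the study calls independent. The seedlings were 12 days old according to the sample labels, in liquid medium, and the study's text gives a different age.

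ABA is the hormone with which plants answer drought. Its receptors of the PYR/PYL/RCAR family bind the hormone and then hold back clade A PP2C phosphatases, which frees SnRK2 kinases to phosphorylate transcription factors of the ABF and ABI5 group. These factors bind a promoter motif called the ABA-responsive element (ABRE), and genes such as RAB18 and RD29B rise. A gene that goes up in WT and stays level or falls in a line with a stronger agonist response departs from this pattern. The 68 members are the genes whose values met a rule of that shape in these samples, and a departure was not established for each of them.

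The libraries held 21502003 to 21754261 reads on genes in the 6 WT samples and 25746050 to 30696833 in the 6 CsPYL1-5m samples, as recovered from the deposited values. Every CsPYL1-5m library was deeper than every WT library, so depth and genotype cannot be told apart, and a member counted with few reads is less certain in WT. The 9 ABA marker genes of a list, PP2CA, HAI1, ABI1, ABI2, HAB1, RAB18, LTI65 (RD29B), P5CS1 and KIN1, were called up in both genotypes and had a higher response in CsPYL1-5m plants, with median log2 fold changes of 2.65 in WT and 5.52 in CsPYL1-5m plants. The level of the transgene was not analysed here. The labelled tissue, whole seedlings, had leaf and root markers in all 12 samples, with summed levels of 19360 to 29340 TPM for 6 leaf photosynthesis genes and 499.7 to 837 TPM for 9 root genes. In such bulk samples, fewer cells of a type and less RNA per cell cannot be told apart.

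The response of the 68 members in WT was modest. It ran from 0.70 to 2.14 with a median of 0.93, so that 29 reached 1 or more, 7 reached 1.5 or more and 1 reached 2 or more. Their CsPYL1-5m response ran from -1.68 to -0.00 with a median of -0.27, beside a median of -0.16 over all genes tested there. In 7 members it was -1 or lower, in 21 it was -0.5 or lower, and in 9 it lay above -0.1. TPM values are shares of a fixed sum, and the members below and above the all-gene median of -0.16 numbered 51 and 17. When samples were scaled by median ratios, which set the all-gene median to -0.00, the median of the members was -0.14 and 16 of them had a CsPYL1-5m response above 0. The rule set the direction of each response, and these counts only describe it.

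**Figure D1:**
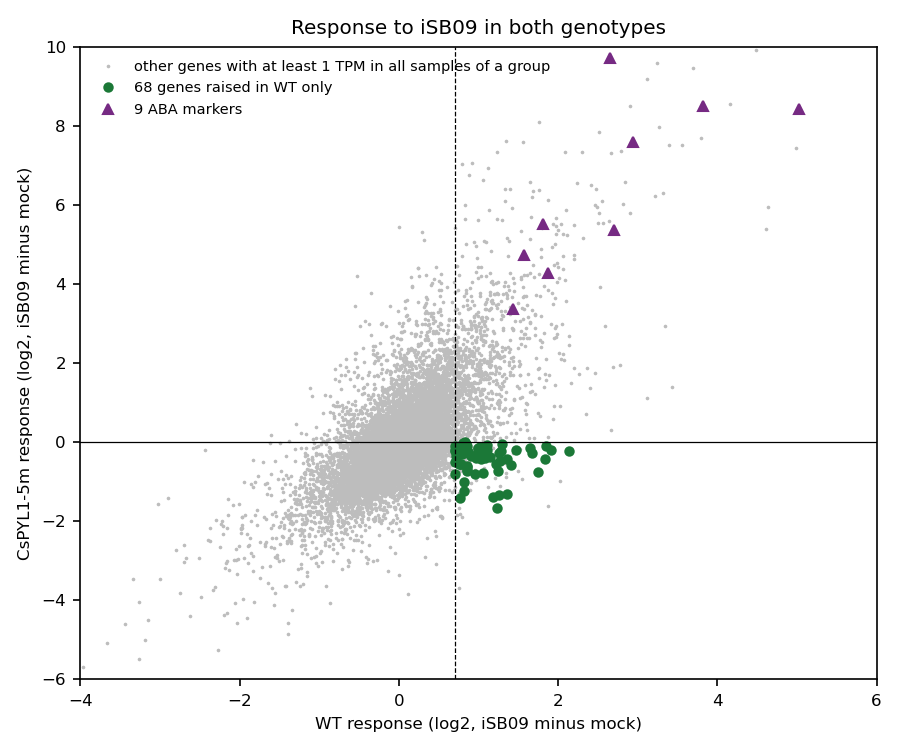
WT response (horizontal axis, log2) against CsPYL1-5m response (vertical axis, log2) for the 68 members in green, the 9 ABA markers in purple and the 20016 other genes with at least 1 TPM in all samples of a group in grey, 2 of which lie outside the axes. The members lie at or right of the dashed line at 0.7 and on or below the line at 0, where other grey points failed another criterion of the rule, and the ABA markers lie high in both genotypes.

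In limma fits across all genes, a gene was called at an adjusted p below 0.05 if its fold change was also above 1 or below -1 on the log2 scale. In WT, 65 members were tested and 16 were called up, where 2.28% of all genes tested were called up. In CsPYL1-5m plants, 61 members were tested and 6 were called down, against 8.35% of all genes. None of the 61 was called up there, where 9.17% of all genes were, and none was higher at an unadjusted p below 0.05. In the test of the difference between the 2 responses, 46 of 65 members were called lower in CsPYL1-5m plants, where 3.6% of all genes were, and none was called higher, against 6.03%. None was higher at an unadjusted p below 0.05. Nothing is read from these counts, since the same samples chose the members. The iSB09 samples of WT lay above the mock samples of WT in 68 members by the rule, as in 20.2% of all genes tested, and all 3 iSB09 samples of CsPYL1-5m plants lay below all 3 of their mock samples in 25 members, where 45.8% of all genes tested there did so.

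**Figure D2:**
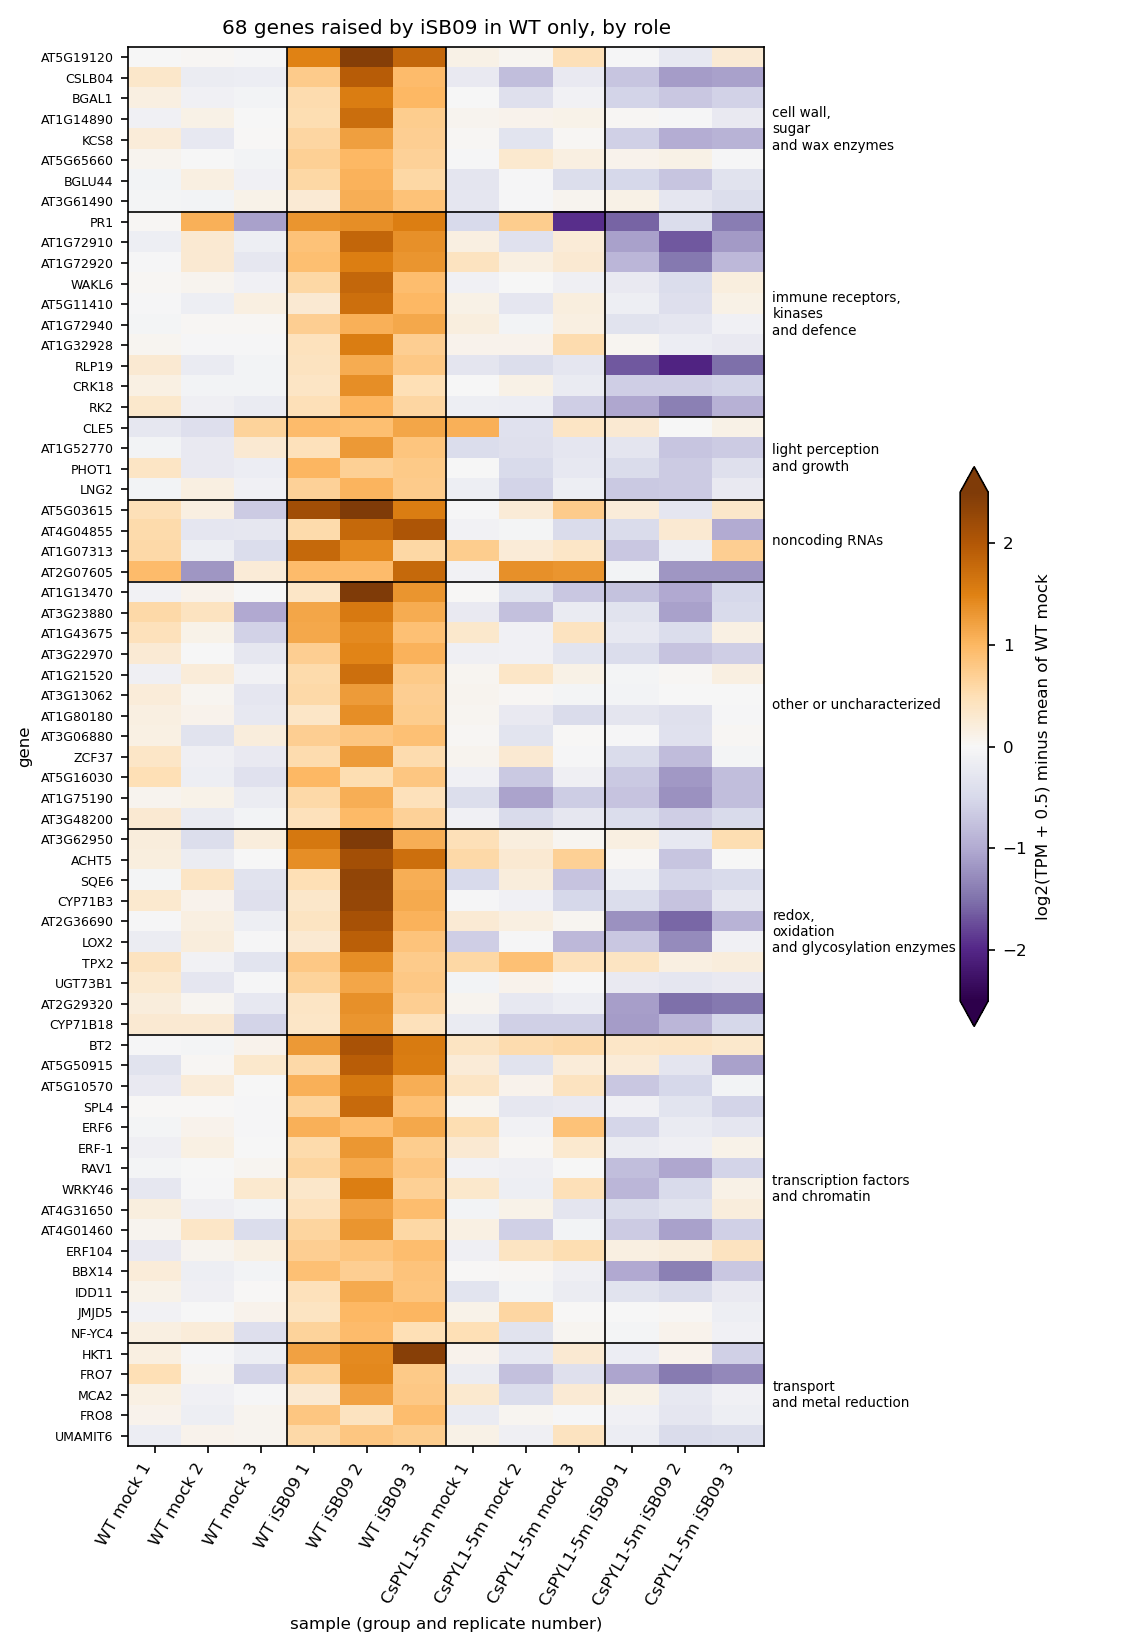
Each of the 68 members (vertical axis, grouped by role) in each of the 12 samples (horizontal axis), as log2(TPM + 0.5) minus the mean of the 3 WT mock samples, in a colour scale from -2.5 to 2.5. The WT iSB09 columns are orange throughout, and the column of replicate 2 is the darkest for most genes.

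The largest rise of a well-expressed member was that of AT5G19120, a single-exon gene at chr5:6414488-6415907 that encodes an aspartyl protease family protein. It was at 43.3, 44.2 and 42.5 TPM in mock-treated WT, 123, 236 and 152 TPM in iSB09-treated WT, 47.3, 44.8 and 60.3 TPM in mock-treated CsPYL1-5m plants and 42.6, 36.7 and 52.3 TPM in iSB09-treated CsPYL1-5m plants. WT iSB09 samples averaged 171 ± 58.4 TPM (SD, n = 3) against 43.3 ± 0.841 TPM (SD, n = 3) in WT mock samples, a 3.94-fold difference, and no WT iSB09 value overlapped with any other group. BT2, at chr3:17907767-17910738, encodes a scaffold protein with BTB and TAZ domains whose transcript is known to respond to sugar and nitrogen. BT2 was at 51.5, 50.9 and 56.4 TPM in mock-treated WT, 128, 227 and 158 TPM in iSB09-treated WT, 70.1, 77.5 and 79 TPM in mock-treated CsPYL1-5m plants and 68, 68.6 and 66.3 TPM in iSB09-treated CsPYL1-5m plants. The 3 WT iSB09 samples stood 3.23-fold above the WT mock mean, and the CsPYL1-5m mock samples lay above the WT mock samples but below every WT iSB09 sample.

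ACHT5 encodes an atypical thioredoxin of the chloroplast and lies at chr5:24707445-24709396. It was at 10.4, 7.93 and 9.06 TPM in mock-treated WT, 24.5, 41.7 and 30.9 TPM in iSB09-treated WT, 13.8, 11.2 and 15 TPM in mock-treated CsPYL1-5m plants and 9.31, 5.38 and 8.97 TPM in iSB09-treated CsPYL1-5m plants. The rise was 3.54-fold in WT, and the iSB09 samples of CsPYL1-5m plants all lay below their mock samples, with a response of -0.75. The annotation places 2 genes on the opposite strand over ACHT5, and since the counting did not use strand, reads of these genes cannot be told apart from its own. HKT1, a sodium transporter that removes sodium from the xylem, was lower and less even, at 2.24, 1.9 and 1.7 TPM in WT mock, 5.07, 5.97 and 12.5 in WT iSB09, 2.08, 1.56 and 2.46 in CsPYL1-5m mock and 1.68, 2.1 and 1.1 in CsPYL1-5m iSB09 samples. Its replicate 3 of WT iSB09 was above both other samples of that group, and all 3 were above every other value.

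**Figure D3:**
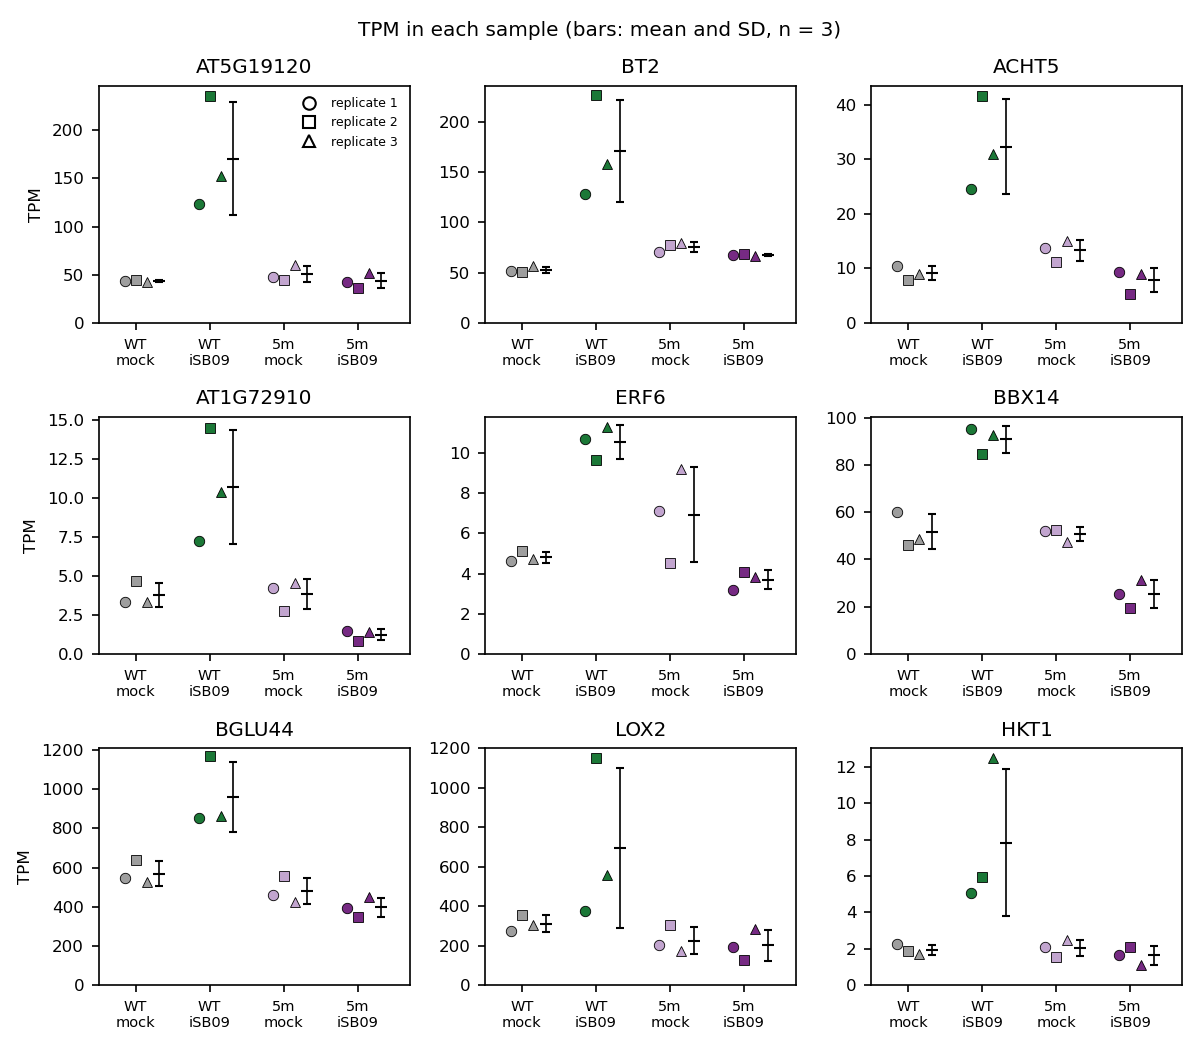
TPM (vertical axes, from 0) of 9 members in the 12 samples by group, with a symbol for each replicate number and bars for the mean and SD of the 3 samples. For all 9, the WT iSB09 samples lie above the WT mock samples, while the iSB09 samples of CsPYL1-5m plants lie at or below the level of their mock samples or overlap with them.

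The upstream sequence of the members was searched for short motifs of known regulators, in 300 bases before the annotated start of each gene (RefSeq, TAIR10.1), on both strands. All 68 members had a window, and in 11 it overlapped another annotated gene. The ABRE core, ACGTG, which ABF and ABI5 factors bind, was found in 19 of the 68 windows (27.9%). It was found in 40.9% of the 804 genes with a response above 0 in both genotypes and in 26.4% of the 19487 genes tested in WT that had a window. No test was made of these shares. The sequences shown are those of 3 members that hold the core and, for comparison, of the ABA marker LTI65, with ACGTG or its reverse complement CACGT in capitals, which run together to CACGTG where both overlap. The windows are chr5:6414188-6414487 for AT5G19120 (plus strand), chr4:9754162-9754461 for ERF6 (minus strand), chr4:9758903-9759202 for ERF-1 (plus strand) and chr5:21236721-21237020 for LTI65 (plus strand).
AT5G19120: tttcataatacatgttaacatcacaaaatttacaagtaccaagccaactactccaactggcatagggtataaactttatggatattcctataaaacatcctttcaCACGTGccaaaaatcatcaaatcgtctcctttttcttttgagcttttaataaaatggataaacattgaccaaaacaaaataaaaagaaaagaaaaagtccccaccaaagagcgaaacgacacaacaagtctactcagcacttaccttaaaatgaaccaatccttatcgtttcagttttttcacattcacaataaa
ERF6: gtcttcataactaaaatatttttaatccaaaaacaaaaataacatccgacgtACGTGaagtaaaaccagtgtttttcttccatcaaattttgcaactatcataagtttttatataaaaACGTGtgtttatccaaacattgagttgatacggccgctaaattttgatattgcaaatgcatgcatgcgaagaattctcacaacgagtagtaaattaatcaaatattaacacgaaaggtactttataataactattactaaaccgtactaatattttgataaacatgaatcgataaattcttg
ERF-1: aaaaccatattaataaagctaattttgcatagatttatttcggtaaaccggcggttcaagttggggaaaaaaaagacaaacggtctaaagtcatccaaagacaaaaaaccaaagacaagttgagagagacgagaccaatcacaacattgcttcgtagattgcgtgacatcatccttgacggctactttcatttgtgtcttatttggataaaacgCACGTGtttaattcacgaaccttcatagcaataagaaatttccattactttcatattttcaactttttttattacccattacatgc
LTI65: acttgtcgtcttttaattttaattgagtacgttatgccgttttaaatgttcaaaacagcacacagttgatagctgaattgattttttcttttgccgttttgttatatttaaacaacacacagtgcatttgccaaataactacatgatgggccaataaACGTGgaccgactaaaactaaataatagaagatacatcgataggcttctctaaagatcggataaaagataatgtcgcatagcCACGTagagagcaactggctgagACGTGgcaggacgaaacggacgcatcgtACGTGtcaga

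AT5G19120 and ERF-1 held 1 stretch each and ERF6 held 2, whereas the window of LTI65 held 4. Neither ACHT5 nor BT2 held the core. They are shown for the TA box, TATCCA, an element known from sugar-responsive amylase promoters of rice, which is marked in capitals on either strand, as TATCCA or TGGATA. The window of ACHT5 is chr5:24707145-24707444 (plus strand) and that of BT2 is chr3:17910739-17911038 (minus strand).
ACHT5: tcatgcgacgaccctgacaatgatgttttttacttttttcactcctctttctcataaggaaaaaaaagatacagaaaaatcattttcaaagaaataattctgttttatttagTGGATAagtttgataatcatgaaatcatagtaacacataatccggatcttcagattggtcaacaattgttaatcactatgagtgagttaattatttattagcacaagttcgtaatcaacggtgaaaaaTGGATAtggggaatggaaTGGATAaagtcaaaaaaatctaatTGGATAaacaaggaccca
BT2: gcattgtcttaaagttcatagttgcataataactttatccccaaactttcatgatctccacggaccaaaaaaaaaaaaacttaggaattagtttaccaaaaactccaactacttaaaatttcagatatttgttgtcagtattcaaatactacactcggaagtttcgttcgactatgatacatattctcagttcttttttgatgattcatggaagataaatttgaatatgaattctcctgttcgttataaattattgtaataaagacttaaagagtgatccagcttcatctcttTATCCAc

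ACHT5 held the TA box at 4 places and BT2 at 1. Over all members it was in 14 windows (20.6%), beside 23.9% of the 804 genes and 16.5% of all genes tested. The W-box core of WRKY factors, TTGAC, was in 37 member windows (54.4%) and in 50.3% of all tested ones, and the longer W-box TTGACC in 14.7% and 13.8%. The G-box CACGTG, which contains the ABRE core, was in 7.35% of member windows, in 16.2% of those of the 804 genes and in 7.903% of all. The CAMTA core CGCGT was in 2.94% of member windows and 8.29% of all. The GCC box GCCGCC of ERF factors was in 1.47% and 2.43%, the DRE core CCGAC in 10.3% and 14.96%, the as-1 core TGACG, which can overlap the W-box core, in 19.1% and 21.9%, and the evening element AAATATCT in 8.82% and 5.82%, with 9.58% in the 804 genes. A match describes the letters in the window and does not show that a factor binds there.

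**Figure D4:**
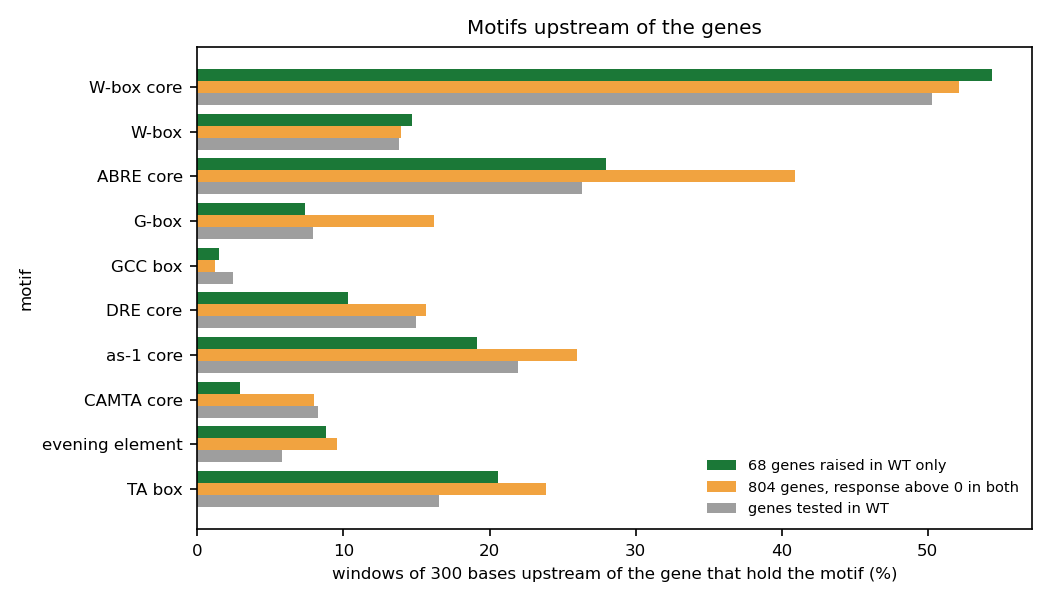
Share of windows of 300 bases upstream of the gene that hold each motif (horizontal axis, percent, from 0) for the 68 members, the 804 genes with a response above 0 in both genotypes and the genes tested in WT. The ABRE core is at 40.9% in the 804 genes, 27.9% in the members and 26.4% in all tested genes, and the G-box at 16.2%, 7.35% and 7.903%.

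No share of a role over all genes was taken, and nothing is read from the sizes of the roles. Transcription factors and chromatin proteins were the most numerous role among the members, with 15 genes: BT2, AT5G50915, AT5G10570, SPL4, ERF6, ERF-1, RAV1, WRKY46, AT4G31650, AT4G01460, ERF104, BBX14, IDD11, JMJD5 and NF-YC4. Their WT response ran from 0.70 to 1.64 and their CsPYL1-5m response from -1.01 to -0.00. ERF6, ERF-1 and ERF104 are ethylene response factors that act early in stress and defence. ERF6 was at 4.62, 5.14 and 4.71 TPM in WT mock, 10.7, 9.67 and 11.3 in WT iSB09, 7.1, 4.51 and 9.22 in CsPYL1-5m mock and 3.18, 4.09 and 3.86 in CsPYL1-5m iSB09 samples, with 3 close WT iSB09 values and a 2.19-fold rise. ERF-1, its neighbour 5042 bases away on the other strand, was at 19.8, 24.2 and 21.4 TPM in WT mock, 32.2, 53.9 and 36.5 in WT iSB09, 26.5, 22.1 and 26.9 in CsPYL1-5m mock and 19.1, 19.9 and 23.4 in CsPYL1-5m iSB09 samples. ERF104 was at 15.2, 18.7 and 19.9 TPM in WT mock, 29.4, 32.2 and 34.6 in WT iSB09, 16.4, 23.8 and 25.6 in CsPYL1-5m mock and 20.03, 20.8 and 24.1 in CsPYL1-5m iSB09 samples, and its CsPYL1-5m response of -0.00 was the nearest of all members to the limit of 0.

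BBX14, a B-box zinc finger protein of the family that includes CONSTANS, lies at chr1:25708175-25710989. It was at 60.1, 46.1 and 48.8 TPM in WT mock, 95.1, 84.4 and 92.8 in WT iSB09, 52, 52.6 and 47.3 in CsPYL1-5m mock and 25.2, 19.4 and 31.4 in CsPYL1-5m iSB09 samples. BBX14 was 1.76-fold higher with iSB09 in WT, with 3 close values, and 2.0-fold lower with iSB09 than mock in CsPYL1-5m plants, where no samples overlapped. A gene on the opposite strand overlaps it. WRKY46, a factor of salicylic acid and drought responses, was at 1.48, 1.82 and 2.42 TPM in WT mock, 2.52, 6.37 and 3.36 in WT iSB09, 2.46, 1.65 and 2.8 in CsPYL1-5m mock and 0.797, 1.21 and 2.1 in CsPYL1-5m iSB09 samples. The bHLH genes AT5G50915 and AT5G10570 had WT responses of 1.35 and 1.25 and CsPYL1-5m responses of -0.42 and -0.72. SPL4, which promotes the change to flowering, was at 1.64, 1.64 and 1.6 TPM in WT mock, 2.84, 6.72 and 3.45 in WT iSB09, 1.7, 1.27 and 1.33 in CsPYL1-5m mock and 1.46, 1.2 and 0.945 in CsPYL1-5m iSB09 samples. Its WT response was largest in replicate 2, at 1.753, beside 0.643 in replicate 1 and 0.913 in replicate 3.

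Immune receptors, kinases and defence genes made up 10 members, and 3 of them, AT1G72910, AT1G72920 and RLP19, were among the 6 members called down in CsPYL1-5m plants, where 8.35% of all genes were. They were PR1, AT1G72910, AT1G72920, AT1G72940, WAKL6, AT5G11410, AT1G32928, RLP19, CRK18 and RK2, with a median CsPYL1-5m response of -0.57, and in 7 of them the iSB09 samples of CsPYL1-5m plants all lay below the mock samples, as they did in 45.8% of all genes tested. AT1G72910, AT1G72920 and AT1G72940 encode proteins with a TIR domain, the signalling part of a class of plant immune receptors, and lie in a row on chromosome 1, with gaps of 707 and 2772 bases between members. AT1G72910 (chr1:27435306-27437192) was at 3.31, 4.67 and 3.33 TPM in WT mock, 7.21, 14.5 and 10.3 in WT iSB09, 4.25, 2.77 and 4.51 in CsPYL1-5m mock and 1.49, 0.826 and 1.42 in CsPYL1-5m iSB09 samples. AT1G72920 (chr1:27437899-27439209) was at 4.63, 5.83 and 3.84 TPM in WT mock, 9.31, 14.5 and 12.4 in WT iSB09, 6.51, 5.32 and 5.79 in CsPYL1-5m mock and 2.35, 1.44 and 2.38 in CsPYL1-5m iSB09 samples. Both rose in WT, 2.83-fold and 2.53-fold, and both were lower with iSB09 in CsPYL1-5m plants, 3.09-fold and 2.86-fold, without overlap of samples.

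AT1G72940 was at 5.93, 6.36 and 6.28 TPM in WT mock, 10.4, 13.5 and 14.2 in WT iSB09, 7.1, 5.91 and 7.0 in CsPYL1-5m mock and 4.74, 5.02 and 5.75 in CsPYL1-5m iSB09 samples, 2.05-fold higher with iSB09 in WT, with a smaller difference in CsPYL1-5m plants. The gene between them, TIR (AT1G72930), is no member. It averaged 80.1 ± 11.9 TPM in WT mock, 73.8 ± 17.96 TPM in WT iSB09, 71.0 ± 7.84 TPM in CsPYL1-5m mock and 15.4 ± 3.20 TPM in CsPYL1-5m iSB09 samples (SD, n = 3), so it was low with iSB09 in CsPYL1-5m plants but not higher with iSB09 in WT. These genes have similar sequences, and only uniquely mapped read pairs were counted.

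RLP19, a receptor-like protein, and KCS8, an enzyme that lengthens very long fatty acids for wax, are also neighbours, 5164 bases apart on chromosome 2. RLP19 was at 16.1, 11.5 and 12.6 TPM in WT mock, 17.9, 28.9 and 23.1 in WT iSB09, 10.7, 9.82 and 10.9 in CsPYL1-5m mock and 3.79, 2.84 and 4.31 in CsPYL1-5m iSB09 samples. KCS8 was at 47.8, 34.5 and 41.1 TPM in WT mock, 63, 95.8 and 67.4 in WT iSB09, 41.8, 32.7 and 41.5 in CsPYL1-5m mock and 26.9, 20.7 and 21.4 in CsPYL1-5m iSB09 samples. Both were highest in WT iSB09 samples and lowest in CsPYL1-5m iSB09 samples, where RLP19 was 2.87-fold and KCS8 1.68-fold below its mock mean. PR1, the classic marker of salicylic acid defence, was at 4.71, 10.1 and 1.9 TPM in WT mock, 12.2, 12.8 and 14.3 in WT iSB09, 3.1, 7.92 and 0.829 in CsPYL1-5m mock and 1.2, 3.25 and 1.43 in CsPYL1-5m iSB09 samples. Its mock values spread widely in both genotypes, and the CsPYL1-5m groups overlapped. RK2, an S-domain receptor kinase at the limit of the rule in WT, had responses of 0.70 and -0.81.

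The 10 members grouped as redox, oxidation and glycosylation enzymes were AT3G62950, ACHT5, SQE6, CYP71B3, AT2G36690, LOX2, TPX2, UGT73B1, AT2G29320 and CYP71B18, and all 10 were highest in replicate 2 of WT iSB09. LOX2, the chloroplast lipoxygenase at the start of jasmonate synthesis, was at 273, 356 and 305 TPM in WT mock, 376, 1151 and 559 in WT iSB09, 202, 304 and 171 in CsPYL1-5m mock and 192, 128 and 286 in CsPYL1-5m iSB09 samples. Replicate 2 was 3.07 times the level of replicate 1, and replicate 1 lay just above the highest mock value. SQE6, a squalene monooxygenase of sterol and triterpene synthesis, was at 28.1, 38 and 22.7 TPM in WT mock, 41.2, 147 and 61.5 in WT iSB09, 20.3, 33.5 and 17.1 in CsPYL1-5m mock and 26, 19.7 and 20.5 in CsPYL1-5m iSB09 samples, with the same unevenness. AT2G36690, a 2-oxoglutarate and iron dependent oxygenase, was at 33.7, 38.5 and 30.9 TPM in WT mock, 45.3, 148 and 71.3 in WT iSB09, 41, 38.4 and 35.4 in CsPYL1-5m mock and 14.4, 11.2 and 18 in CsPYL1-5m iSB09 samples. It was 2.63-fold lower with iSB09 in CsPYL1-5m plants without overlap. AT2G29320, a reductase of the Rossmann-fold type, was at 28.6, 25.5 and 20.8 TPM in WT mock, 32.2, 63.9 and 41 in WT iSB09, 26.1, 20.8 and 21.9 in CsPYL1-5m mock and 11.3, 8.33 and 8.78 in CsPYL1-5m iSB09 samples, again with CsPYL1-5m iSB09 samples below all others.

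Enzymes and proteins of cell wall, sugar and wax were 8 members: AT5G19120, CSLB04, BGAL1, AT1G14890, KCS8, AT5G65660, BGLU44 and AT3G61490. This role included the most abundant member. BGLU44, a beta-glucosidase, was at 544, 639.8 and 524 TPM in WT mock, 852, 1169 and 861 in WT iSB09, 460.3, 556 and 425 in CsPYL1-5m mock and 394, 347 and 448 in CsPYL1-5m iSB09 samples. BGAL1, a beta-galactosidase that acts on wall polysaccharides, was at 101, 83.6 and 85.1 TPM in WT mock, 129.9, 264 and 178 in WT iSB09, 88.6, 68.3 and 84 in CsPYL1-5m mock and 61.1, 55.4 and 60.1 in CsPYL1-5m iSB09 samples, 2.12-fold higher with iSB09 in WT and without overlap lower in CsPYL1-5m plants. AT5G65660, a hydroxyproline-rich glycoprotein, was at 131, 124 and 119 TPM in WT mock, 202, 247 and 199.7 in WT iSB09, 121, 154 and 139 in CsPYL1-5m mock and 132, 136 and 122 in CsPYL1-5m iSB09 samples, and its CsPYL1-5m groups overlapped. All 8 were highest in replicate 2 of WT iSB09.

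Transport and metal reduction counted 5 members, HKT1, FRO7, MCA2, FRO8 and UMAMIT6. FRO7, the ferric reductase of the chloroplast, was at 8.16, 5.82 and 3.67 TPM in WT mock, 9.15, 16.1 and 9.93 in WT iSB09, 4.88, 3.1 and 4.17 in CsPYL1-5m mock and 2.46, 1.78 and 1.99 in CsPYL1-5m iSB09 samples, and its WT iSB09 replicate 1 was only slightly above the highest WT mock sample. Light perception and growth counted 4, CLE5, AT1G52770, PHOT1 and LNG2, among them the blue light receptor phototropin 1 (PHOT1) and a protein of its signalling family, AT1G52770. Their responses were 0.81 to 1.01 in WT and -0.25 to -0.19 in CsPYL1-5m plants. The 12 remaining coding or unplaced genes were AT1G13470, AT3G23880, AT1G43675, AT3G22970, AT1G21520, AT3G13062, AT1G80180, AT3G06880, ZCF37, AT5G16030, AT1G75190 and AT3G48200, of which AT3G22970, a protein of unknown function, was the most abundant of those with a WT response of 1 or more, at 52.4, 43.5 and 36.3 TPM in WT mock, 71.5, 122 and 90.9 in WT iSB09, 40.1, 40.2 and 34.6 in CsPYL1-5m mock and 31.9, 26.1 and 28.1 in CsPYL1-5m iSB09 samples.

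The largest WT responses were partly those of scarce transcripts. AT5G03615, a long noncoding RNA, had the largest, 2.14, with 3, 2 and 0 reads in WT mock and 15, 23 and 9 reads in WT iSB09 samples. AT1G13470, a gene of unknown function, had 11, 14 and 12 reads in WT mock and 18, 289 and 43 in WT iSB09 samples, so its response of 1.83 came mainly from replicate 2. AT3G62950, a glutaredoxin-type protein of the thioredoxin superfamily, had 3, 0 and 3 reads against 17, 48 and 10. AT2G07605, a small nucleolar RNA, had the most negative CsPYL1-5m response, -1.68, from 1, 4 and 4 mock reads and 1, 0 and 0 iSB09 reads. AT4G04855, another noncoding RNA, had at most 11 reads in any sample and overlaps a gene on the other strand. No ratio of means is given for these genes, and their log2 responses depend on the pseudocount: that of AT5G03615 in WT was 3.23 with a pseudocount of 0.1 and 1.61 with 1. Over all members, 6 had 3 reads or fewer in at least one sample and 12 had fewer than 20.

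By annotation, 62 members were protein-coding, 3 were long noncoding RNAs, 1 was a small nucleolar RNA, 1 a pseudogene and 1 a transcribed pseudogene (CYP71B18). The role of noncoding RNAs held 4 members, the long noncoding RNAs AT5G03615, AT4G04855 and AT1G07313 and the small nucleolar RNA AT2G07605. A single exon was annotated for 24 members (35.3%), beside 16.6% of all genes tested in WT, and the median exon length was 1780 bases beside 1770. The members lay on all 5 nuclear chromosomes, 19, 10, 18, 8 and 13 in order, and 11 overlapped another annotated gene, 10 of them one on the opposite strand. Mean levels in WT iSB09 samples ran from 2.26 to 961 TPM with a median of 20.7 TPM.

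The WT response was not even over replicates. Replicate 2 of WT iSB09 was the highest of the 3 in 53 members (77.9%), replicate 3 in 11 and replicate 1 in 4. In 25 members replicate 2 was at least 1.5 times the next sample, and in 8 at least 2 times. The median of the members above the WT mock mean was 0.63, 1.36 and 0.86 on the log2 scale in replicates 1, 2 and 3. The same library was also the highest in 66.5% of the 804 genes with a response above 0 in both genotypes and in 34.9% of all genes tested. Without this one library, the median WT response of the 68 members was 0.73, 39 of them were still at 0.7 or more, and the lowest was at 0.42. Among the 15 members that were not highest in that library were BBX14, PHOT1, FRO8, ERF6 and ERF104, and PHOT1 and FRO8 were picked out here after their values were seen.

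The median of the 9 ABA markers was lowest in replicate 2: above the WT mock mean it was 2.39, 1.96 and 2.72 in replicates 1, 2 and 3. Of these markers, ABI1, HAB1 and P5CS1 were themselves highest in replicate 2, at 119.9, 38.04 and 173.8 TPM, and the others were not. Lists of jasmonate, xenobiotic detoxification, hypoxia and heat shock genes also had their lowest median in replicate 2. Other lists were highest in it. A list of 13 sugar starvation genes had medians of 0.67, 1.49 and 0.97, and a list of 19 immune genes had medians of -0.41, 0.73 and 0.27. The medians were 0.27, 0.64 and 0.42 for touch, wound and early stress, -0.01, 0.70 and 0.04 for phosphate starvation and 0.00, 0.37 and 0.12 for iron deficiency. The 6 leaf photosynthesis markers ran the other way, at 0.26, -0.57 and -0.14, with sums of 29340, 21040 and 24880 TPM, and the sums of the 9 root markers were 600.5, 499.7 and 612 TPM. Many lists thus stood apart in the same library as the members, in either direction, and their part in the members' response was not tested.

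**Figure D5:**
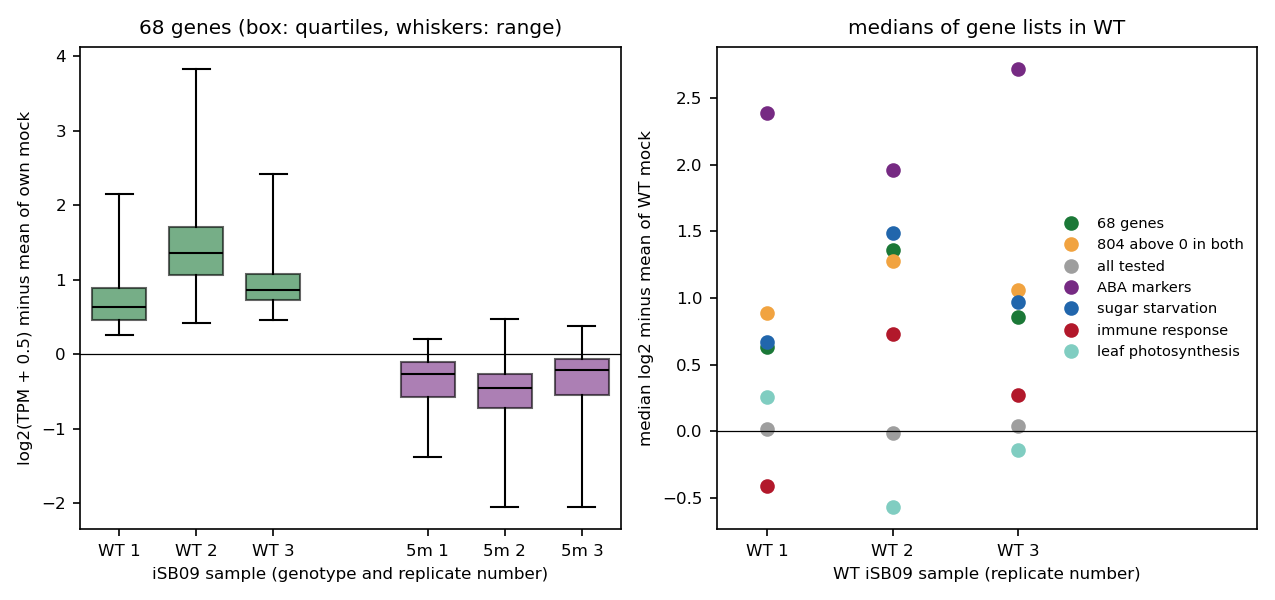
Left, log2(TPM + 0.5) of the 68 members in each iSB09 sample minus the mean of the mock samples of the same genotype (boxes are quartiles, whiskers the range, lines medians). Right, medians of the members and of gene lists in the 3 WT iSB09 samples. The members' medians are 0.63, 1.36 and 0.86. The 804 genes with a response above 0 in both genotypes, at 0.89, 1.28 and 1.06, are also highest in replicate 2. So are the sugar starvation list, at 0.67, 1.49 and 0.97, and the immune list, while the median of the ABA markers is lowest in replicate 2 at 1.96.

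To read the same measure in samples that had no part in the choice, the rule was applied to a pair of replicates of every group and the response was read in the third. Chosen without replicate 1, there were 210 genes, and their median WT response in replicate 1 was 0.20, beside -0.00 for all genes tested, with 11.9% of them at 0.7 or more beside 3.75% of all. Chosen without replicate 2, there were 58 genes, with a median of 1.21 in replicate 2 and 67.2% at 0.7 or more, beside 9.80% of all. Chosen without replicate 3, there were 88 genes, with a median of 0.86 in replicate 3 and 65.9% at 0.7 or more, beside 6.39% of all. The median CsPYL1-5m response in the replicate left out was -0.34, -0.33 and -0.20, beside -0.15, -0.19 and -0.16 for all genes tested. It was 0 or less in 78.6%, 77.6% and 62.5% of the chosen genes, beside 62.2%, 64.3% and 60.2% of all, so in replicate 3 the CsPYL1-5m share was near that of all genes. Both criteria were met in the left-out replicate by 7.14%, 55.2% and 39.8% of the chosen genes, beside 0.403%, 2.61% and 0.872% of all genes tested. The sets chosen without replicates 1, 2 and 3 held 62, 35 and 55 of the members, so these values are partly those of other genes. The median WT response of each set was above that of all genes in the replicate left out. In replicate 1 it was only 0.20, and few of the genes reached 0.7 there.

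In mock samples the members differed between genotypes about as all genes did. The median difference between CsPYL1-5m mock and WT mock samples was -0.03 on the log2 scale, beside -0.01 for all genes tested, and none of the 60 members tested was called higher or lower by limma, where 0.0512% and 0.0154% of all genes were. At an unadjusted p below 0.05, 3 were higher and 4 lower. All CsPYL1-5m mock samples lay above all WT mock samples in 5 members, against 7.36% of all genes, and all below in another 5, against 7.48%. With iSB09, the median difference was -1.40. All 3 CsPYL1-5m samples lay below all 3 WT samples in 67 of 68 members, where 42.7% of all genes tested did so, and limma called 52 of 65 lower and none higher, where 4.49% and 6.3% of all genes were. None of them was higher at an unadjusted p below 0.05. In 60 members every WT iSB09 sample was above all 9 other samples. The rule favours this count, no share over all genes was taken for it, and nothing is read from it. Since the rule used these groups, the differences follow in part from the choice.

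Members were on 3 of the lists of stress pathways. Of 24 touch, wound and early stress genes, 4 (16.7%) were members, WRKY46, ERF-1, ERF6 and ERF104, beside 0.182% of all genes in the tables. The lists were drawn up with earlier results of these data known, and nothing is read from these shares. On that list limma called 1 of 21 up in WT, ERF6, and 1 down, WRKY18, and in CsPYL1-5m plants 7 of 22 up and 3 down. Of 19 immune response genes only PR1 was a member, with 1 of 16 called up in WT (WRKY70) and 1 down (PAD3), and none up and 3 down in CsPYL1-5m plants, where 3 were higher and 8 lower at an unadjusted p below 0.05. Of 20 jasmonate genes only LOX2 was a member. None of 17 tested was called in WT, with 3 higher and 2 lower at an unadjusted p below 0.05, and 3 were called up and 1 down in CsPYL1-5m plants.

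No member was on the other lists, whose counts are by limma. For sugar starvation, 7 of 13 were called up in WT and 7 in CsPYL1-5m plants, and 1 and 2 were called down. For heat shock, 1 of 15 was called up in WT and 7 in CsPYL1-5m plants. For hypoxia, 2 of 14 were called up in WT and 3 in CsPYL1-5m plants, and 2 and 4 down. For phosphate starvation, 1 of 9 was called up in WT and 2 of 8 in CsPYL1-5m plants. For xenobiotic detoxification, none of 24 was called in WT, with 2 higher and 2 lower at an unadjusted p below 0.05, and 5 of 23 were called up and 4 down in CsPYL1-5m plants. For iron deficiency, none of 5 was called in WT, again with 2 higher and 2 lower at an unadjusted p below 0.05, and 2 of 6 were called up and 2 down in CsPYL1-5m plants. Of the marker lists, only NRT2:1 of 9 root genes (down in both genotypes) and MYB60 of the guard cell genes (down in CsPYL1-5m plants) were called. The 4 guard cell genes summed to 130.5 to 142 TPM in WT mock and 70.9 to 109 TPM in WT iSB09 samples, the 3 flower genes to at most 4.02 TPM, and the 5 seed storage genes to at most 1.07 TPM in any WT sample and 6.74 TPM in any sample of CsPYL1-5m plants.

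The rule chose the members for high WT iSB09 values and low CsPYL1-5m responses, which in itself gave them similar profiles over these samples. Over the 12 samples, the Pearson correlation of a member with the median profile of the members ran from 0.599 to 0.990 with a median of 0.904. Among the non-members most like that profile were PPC1, a phosphoenolpyruvate carboxylase, with r = 0.978, the kinase gene AT5G22050 with 0.977, MLO2, a susceptibility factor for powdery mildew, with 0.976 and GID1A, a gibberellin receptor, with 0.968. Others were RECQ4B, AT2G26190, AT5G54170, AT2G36350 and AT5G60270, with r of 0.959 to 0.964. These 12 samples are 4 groups with 3 libraries each, and the correlations describe the likeness only. MLO2 was at 83.5, 83.2 and 74.1 TPM in WT mock and 96.5, 160 and 111 TPM in WT iSB09 samples, and its WT response of 0.57 kept it out of the rule.

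The limits of the rule fell within a continuous range. The members with the smallest WT response were NF-YC4, RK2 and AT3G48200, at 0.7033, 0.7045 and 0.7057, and the nearest genes outside were WCRKC1, AT1G49010 and RbcX1, at 0.6982, 0.6976 and 0.696. The members nearest to 0 in CsPYL1-5m plants were ERF104, AT3G06880 and AT1G80180, at -0.0001, -0.0278 and -0.0322, and those just outside were AT1G72160, J20 and AT1G25230, at 0.0044, 0.0308 and 0.0332. For the mean level in WT iSB09 samples, AT3G62950, AT2G07605 and AT4G04855 were lowest inside, at 2.26, 2.27 and 2.502 TPM, and ACS11, AT5G09385 and AT4G04995 were next outside, at 1.98, 1.75 and 1.70 TPM. The lowest WT iSB09 value was 1.0034, 1.0047 and 1.0047 times the highest WT mock value in AT5G16030, AT4G04855 and AT2G07605, and 0.997, 0.9966 and 0.9962 times in AT4G33735, AT1G35710 and AT1G10340, which were left out.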

How the data were processed

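RNA-seq libraries of 12 seedling samples (4 groups, 3 replicates) were analysed. The authors trimmed the reads, aligned them with HISAT2, kept pairs that mapped to one place, ran HTSeq-count on the Araport11 annotation without strand, as the deposited tables are named, and deposited TPM and RPKM values of 37336 genes. Columns of the authors' own comparisons were not used. The main unit was TPM as deposited by the authors, and the RPKM values deposited by the authors served for depth and as an alternative. Reads were recovered from RPKM and exon length, and 72.6% of detected genes were within 0.05 of whole reads in all samples. Of the 68 members, 46 gave whole reads with the annotated length. For the others the nearest length that gave whole reads in all samples was used, so their read counts rest on that fitted length.

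The tests were run in limma 3.58.1 under R 4.3.3 on log2(TPM + 0.5), with a variance trend, on the samples of each comparison or on all 12 for the difference between responses. A gene entered a test if one of the groups had 1 TPM or more in each of its 3 replicates. Benjamini-Hochberg adjustment ran over all these genes, and calls were made at an adjusted p below 0.05 and a log2 fold change above 1 or below -1. The fits were tested on simulated data. The p-values measure the spread between these samples. Deviations of same-numbered mock and iSB09 samples had correlations of 0.164, 0.305 and 0.207 in WT and 0.12, -0.023 and -0.139 in CsPYL1-5m plants. Between samples of different numbers they ran from -0.279 to 0.178 in WT and from -0.194 to 0.19 in CsPYL1-5m plants. These values do not settle a pairing by number, so a replicate block was fitted as an alternative.

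The members, the roles and the 15 gene lists (10 of pathways, 5 of markers) were chosen with earlier results of these data known. Members described with values were the 12 with the largest WT response, the 8 highest in WT iSB09, the 8 lowest CsPYL1-5m responses, the 8 with the smallest spread among those with a WT response of 1 or more, those on a list, within 20 kb of another member or nearest a threshold; the others are listed by role. One gene among those most like the members is not reported here. Gene models came from RefSeq (TAIR10.1), which matched 37051 identifiers. Summaries and plots used matplotlib 3.10.9, numpy 2.4.6 and pandas 2.3.3 under Python 3.11.15. Alternatives were pseudocounts of 0.1 and 1, no filter, median-ratio scaling, quantile normalization, RPKM, no trend, the block, all samples in one fit, other thresholds and leaving out each replicate. Leaving out WT iSB09 replicate 2 alone was added after seeing the data.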

Additional observations from a re-analysis of the deposited data

Results flagged for a closer look

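The response to iSB09 differed between genotypes in 46 of the 65 members tested. They had a lower response in CsPYL1-5m plants than in WT by the limma test of the difference between responses. Of all genes tested, 3.6% were called lower in this test. With median-ratio scaling 34 members were called, and 34 without WT iSB09 replicate 2. The members were chosen on both responses, so this difference is a description of the choice.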

How the results depend on the processing

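Other settings of the rule changed which genes were members more than their median responses. Between 52 and 77 genes were chosen with other pseudocounts, scalings or the RPKM values, and 39 members were chosen under all of these. A WT response of 1 or more left 29 genes with a median CsPYL1-5m response of -0.39, and a CsPYL1-5m response of -0.25 or less left 37 with a median of -0.56. With a pseudocount of 0.1 that median was -0.36. Leaving out one replicate number gave 58 to 210 genes, with 210 without replicate 1 of every group, and median CsPYL1-5m responses of -0.45 to -0.34. Without WT iSB09 replicate 2 alone, 48 genes were chosen, 37 of them members, with a median of -0.39. The median WT response read in a replicate that the choice did not use was 0.20 to 1.21, beside 0.93 for the 68. Beside the 16 of 65 members called up in WT, 10 of 68 were called with no filter and 10 of 65 without WT iSB09 replicate 2. Of all genes tested, 2.28%, 1.57% and 2.09% were called up in these settings. When a replicate number was left out, 0 to 26 members were called, beside 0.0405% to 2.57% of all genes. The 0 was without replicate 3, where limma called only 8 of 19768 genes tested. The 46 calls of a lower response became 25 to 46 in that way, with 25 without replicate 3, beside 2.2% to 3.83% of all genes. They became 34 with median-ratio scaling, beside 2.32% of all genes, and 34 without WT iSB09 replicate 2, beside 3.92%. With the replicate block, pairing samples by number, 23 members were called up in WT, beside 2.45% of all genes. In CsPYL1-5m plants 6 of 61 were called down, beside 8.37%. In the same setting 47 had a lower response and 51 were lower between iSB09 groups, beside 3.68% and 4.46% of all genes. None was called between mock groups. For the 38 members described with values, there were 800 single-member responses under these alternatives, of which 780 moved by less than the replicate spread and 20 by more. No filter, no trend, the block and the fit of all samples leave a fold change as it is. Their values are among the 780 and could not move, so this count overstates how stable the responses were. None of the called responses changed sign, but 20 CsPYL1-5m values of 10 members did, from -0.42 to -0.00 as reported to 0.00 to 0.34, among them LOX2 at 0.34 and SQE6 at 0.30 without replicate 2, HKT1 at 0.05 and AT5G50915 at 0.03 without replicate 3, and BT2 at 0.01, AT5G65660 at 0.08 and ERF104 at 0.16 with median-ratio scaling. Low counts limit the scarcest members, and depth differed between genotypes in all samples, so depth and genotype cannot be told apart.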

Other observations

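The other genes of the TIR cluster on chromosome 1 are no members but lie beside AT1G72910, AT1G72920 and AT1G72940. AT1G72890 averaged 4.39 ± 1.09 TPM in WT mock, 6.90 ± 1.68 TPM in WT iSB09, 3.49 ± 0.352 TPM in CsPYL1-5m mock and 2.17 ± 0.835 TPM in CsPYL1-5m iSB09 samples (SD, n = 3). AT1G72900 averaged 33.6 ± 3.33, 41.3 ± 6.41, 37.8 ± 7.71 and 25.6 ± 2.58 TPM in the same order, with responses of 0.29 and -0.54 on the log2 scale. AT1G72950 was at most at a mean of 1.26 TPM. Among the non-members of the cluster, the CsPYL1-5m response was -0.63 for AT1G72890, -0.54 for AT1G72900, -2.18 for TIR and -0.67 for AT1G72950. The median over all genes tested there was -0.16. For the 3 members the rule set this response at 0 or less, so nothing is read from its sign over all 7 genes. The WT responses of the 7 ran from -0.13 to 1.35.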
